A study of Mus musculus with 12 samples.

Results

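The comparison described here set granulocyte-monocyte precursors (GMPs) of mice carrying a variant form of human GFI1 against GMPs of mice without Gfi1. It used 6 of the 12 arrays of the study, chosen by their labels: SNP 1 to SNP 3, from human Gfi1-SNP knock-in mice, and KO 1 to KO 3, from Gfi1 knock-out mice. The other 6 arrays came from wild-type mice (WT) and from human Gfi1-wt knock-in mice (wtKI), 3 each, and served to estimate the spread between arrays and as reference levels. All mice were of the C57BL/6 strain, and the labels give no age, no sex, no zygosity of the knocked-in or deleted allele and no treatment. Cells were sorted by flow cytometry from bone marrow, and their RNA, amplified for small inputs, was hybridised to Affymetrix arrays (Mouse Gene 1.0 ST). The study sought target genes of the variant that may bear on acute myeloid leukaemia. Setting the variant against the knock-out asks at which genes a cell with the variant protein differs from a cell with none.

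GFI1 is a zinc-finger protein that represses transcription. It binds DNA at sites with an AATC core and brings histone-modifying corepressors to its targets, and in GMPs it favours the neutrophil over the monocyte fate. Mice without Gfi1 are known for a lack of mature neutrophils and for precursors that express genes of other myeloid lineages.

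The table gave 14201 genes a log2 signal on every array, the median of the probe sets assigned to that gene alone. A difference of 1 on this scale is a factor of 2. SNP 1 and KO 1 stood apart from the rest, since the median of their correlations with other arrays was 0.633 and 0.70, and 0.836 to 0.886 for the remaining 10. Probe sets of the same gene also scattered more on these arrays, with an SD of 0.922 on SNP 1 and 0.972 on KO 1 against 0.386 to 0.592. Within the groups, SNP 2 and SNP 3 correlated at 0.879 and KO 2 and KO 3 at 0.915, while SNP 1 and SNP 2 reached 0.674 and KO 1 and KO 2 reached 0.723. Every comparison was therefore made on all 12 arrays and again on the 10 arrays without SNP 1 and KO 1, which left 2 SNP and 2 KO arrays. Of the genes that mark GMPs, myeloperoxidase, Mpo, lay between 10.8 and 11.6 on all arrays and was lowest on SNP 1. The progenitor genes Kit and Cd34 were also lowest on SNP 1, at 6.86 and 7.34. On the other arrays they lay between 7.79 and 9.27 and between 10.26 and 10.76. The granule protease genes Ctsg and Prtn3 were at 9.57 and 6.81 on SNP 1. Elsewhere they lay between 11.02 and 11.57 and between 7.98 and 9.10. The Fc receptor genes Fcgr3 and Fcgr2b were not lowest on SNP 1. Y-linked genes were high on all 6 SNP and KO arrays (Eif2s3y between 7.84 and 8.86) and low on WT 3, wtKI 2 and wtKI 3.

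Of all 14201 genes, 2 passed the test on 12 arrays: Rplp0 was higher with the variant and Zdhhc2 was lower. With the 10 arrays the only gene past the threshold was Ifitm1, which was lower with the variant. The shares of genes called were 0.0141% on 12 arrays and 0.00704% on 10 arrays (limma, Benjamini-Hochberg adjusted p under 0.05). With the replicate number as a block, 0 genes were called in either set of arrays, at lowest limma adjusted p of 0.12 and 0.0843. Without adjustment, p was under 0.05 for 1611 genes (11.3%) on 12 arrays and 1930 (13.6%) on 10 arrays. On the 12 arrays 664 of them (4.68%) were higher and 947 (6.67%) lower in SNP, and on the 10 arrays 900 (6.34%) and 1030 (7.25%). The ± values given with differences are standard errors from these fits, with 3 arrays per group, or 2 for SNP and KO where 10 arrays were used. Whether the 3 arrays of a genotype stand for 3 mice is not said in the labels, and each p measures only how these samples scatter, which may be technical.

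Rplp0 encodes a protein of the ribosomal stalk. Its signal was 10.10, 10.22 and 10.10 on SNP 1 to SNP 3 and 8.15, 8.63 and 8.56 on KO 1 to KO 3, with 10.38, 10.29 and 10.41 on the WT arrays and 8.38, 8.62 and 8.17 on the wtKI arrays. The SNP arrays thus lay with WT and the KO arrays with wtKI, without overlap. The difference, SNP minus KO, was 1.69 ± 0.20 (limma adjusted p = 0.0324) and 1.56 ± 0.20 on the 10 arrays (limma adjusted p = 0.0707). Single probe sets differed widely. Probe set 10524719 was at 10.10, 10.22 and 10.10 on the SNP arrays and 5.33, 5.66 and 5.28 on the KO arrays, a difference of 4.72 ± 0.20 (limma adjusted p = 1.73e-05 over all probe sets). Probe set 10524720 differed by 1.90 ± 0.34 (limma adjusted p = 0.221), and 10524721, 10524722 and 10581030 by -0.01, 0.45 and -0.19. With median polish as the summary of the probe sets, the difference of Rplp0 was 0.61 (limma adjusted p = 0.505), and for its brightest probe set it was -0.0077.

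Zdhhc2 encodes an enzyme that attaches palmitate to proteins. It was at 4.99, 3.82 and 4.53 on the SNP arrays and 7.68, 7.53 and 6.78 on the KO arrays, with 5.66, 4.88 and 5.59 in WT and 6.07, 6.95 and 6.62 in wtKI. In these gene values all 3 SNP arrays lay below all 3 KO arrays, and the WT arrays lay closer to SNP. The difference was -2.88 ± 0.37 (limma adjusted p = 0.0429) and -2.98 ± 0.40 on the 10 arrays (limma adjusted p = 0.0707). SNP 2, SNP 3 and WT 2 lay under the 5th percentile of their arrays, so the size of the difference is not exact there. The gene rests on 2 probe sets, and neither passed by itself. Probe set 10571412 differed by -3.95 ± 0.83 (limma adjusted p = 0.258 over all probe sets), with all SNP arrays below KO. Probe set 10571414 differed by -1.815 ± 0.85 (limma adjusted p = 0.463). On 10571414 SNP 1, at 6.86, lay above KO 1, at 5.65. There WT, between 6.21 and 6.86, lay with wtKI, between 6.54 and 6.79. Leaving out any one of the 12 arrays other than SNP 1 ended the calls of both Rplp0 and Zdhhc2, with limma adjusted p of 0.0543 to 0.128 for Rplp0 and 0.0543 to 0.19 for Zdhhc2.

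Ifitm1 encodes a membrane protein induced by interferon. Its signal was 9.74, 7.63 and 7.48 on the SNP arrays, 9.53, 9.78 and 9.91 on the KO arrays, 8.40, 8.33 and 8.12 in WT and 8.69, 8.55 and 8.84 in wtKI. SNP 2 and SNP 3 were below every other array, whereas the gene value of SNP 1 was within the range of KO. The difference was -1.46 ± 0.47 (limma adjusted p = 0.312) on 12 arrays and -2.29 ± 0.20 (limma adjusted p = 0.00587) on 10. Of its 3 probe sets, 10558771 and 10558772 differed by -1.55 and -1.48 on 12 arrays, and 10558770 by 2.13, the latter with SNP 1 at 10.06 and the other SNP and KO arrays between 4.16 and 5.36. On 10558771 SNP 1 was at 9.45 and KO between 9.53 and 9.91. On 10558772 SNP 1 was at 9.74 and KO between 11.22 and 11.35, so SNP 1 lay below KO on both. When every probe set was tested by itself, 2 of 98975 were called with either set of arrays (0.00202%), among them 10524719 of Rplp0.

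**Figure D1:**
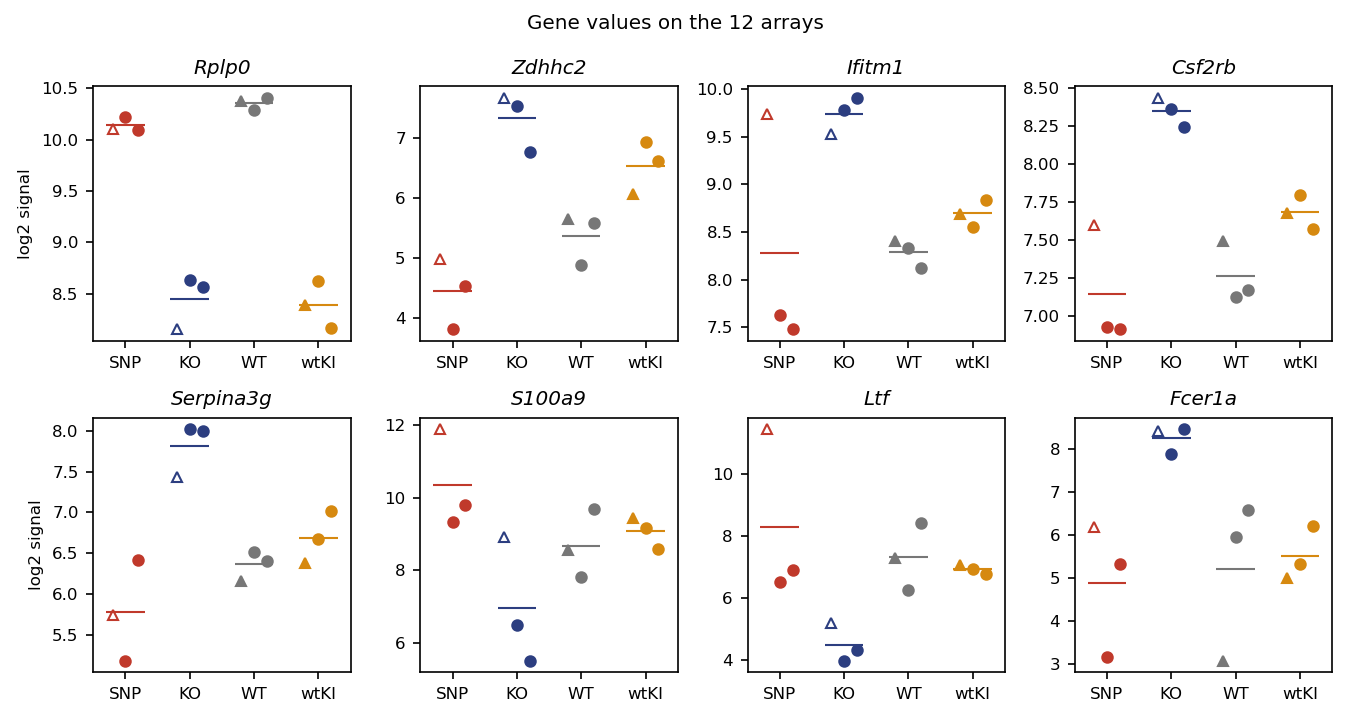
Log2 signal (y axis, separate scale per panel) of 8 genes on each of the 12 arrays, grouped by genotype (x axis). Triangles are replicate 1, circles replicates 2 and 3, open triangles SNP 1 and KO 1, and lines the means of 3 arrays. The SNP arrays lie above KO for Rplp0 and below it for Zdhhc2, and SNP 1 stands far above SNP 2 and SNP 3 for Ltf.

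Among the genes next in rank, none passed the threshold with the median of probe sets. With the mean of probe sets Adamts6, Serpina3g, Ttc8 and Vat1 passed it, each at a limma adjusted p of 0.0399. Lower with the variant on 12 arrays were Fzd6, a receptor for Wnt proteins, at -1.52 ± 0.22 (limma adjusted p = 0.0619), Vat1, a membrane protein first found in synaptic vesicles, at -1.58 ± 0.23 (limma adjusted p = 0.0619), and Ttc8, a subunit of the BBSome of cilia, at -2.08 ± 0.33 (limma adjusted p = 0.0946). Serpina3g, an inhibitor of proteases expressed in blood progenitors and immune cells, was at 5.74, 5.18 and 6.41 on the SNP arrays and 7.44, 8.02 and 7.99 on the KO arrays. All SNP arrays of Serpina3g lay below KO, with WT between 6.16 and 6.52, and the difference was -2.04 ± 0.31 (limma adjusted p = 0.0901) and -2.21 ± 0.36 without SNP 1 and KO 1. It has close relatives in the Serpina3 cluster, and probe sets may be shared among them. Higher with the variant were Pde6c, a phosphodiesterase of cone photoreceptors, at 1.19 ± 0.20, Ugt1a6b, a glucuronosyltransferase that shares exons with its neighbours, at 1.72 ± 0.31, Adamts6, a secreted metalloprotease, at 1.46 ± 0.27, and Grem1, an antagonist of BMP ligands, at 0.94 ± 0.18. Their limma adjusted p ranged from 0.0946 to 0.145. In all 4 of these genes and in Fzd6, Vat1, Serpina3g and Ttc8, the SNP and KO arrays did not overlap. Over all genes 1930 (13.6%) showed such a separation, 930 (6.55%) of them with SNP above KO and 1000 (7.04%) with SNP below. Ttc8 lay under the 5th percentile of the array on all 3 SNP arrays and Adamts6 on 2 KO arrays. The sizes of their differences are therefore not exact.

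On the 10 arrays the next ranks held other genes. Kcnrg, a regulator of potassium channels, was at 7.57 and 7.38 on SNP 2 and SNP 3 and at 4.44 and 5.09 on KO 2 and KO 3. Its difference was 2.71 ± 0.33 (limma adjusted p = 0.0575). KO 1 was at 7.03, and on 12 arrays the difference of Kcnrg was 2.22 ± 0.54 (limma adjusted p = 0.258). Slc7a3, a transporter of cationic amino acids, differed by 1.21 ± 0.18, Lpar6, a receptor for lysophosphatidic acid, by 2.24 ± 0.37, Siglece, an inhibitory receptor for sialic acids, by -1.81 ± 0.28, and Mmachc, an enzyme of cobalamin handling, by -1.59 ± 0.25. These 4 had a limma adjusted p of 0.0979. On SNP 1, Siglece was at 9.27 and Mmachc at 4.77, against 6.59 and 7.33 on SNP 2, and on 12 arrays their differences were -0.55 ± 0.62 and -1.76 ± 0.65. With only 2 arrays per group, 6918 genes (48.7%) were separated between SNP 2 and SNP 3 on one side and KO 2 and KO 3 on the other, 3491 (24.6%) higher and 3427 (24.1%) lower in SNP, so separation of these 4 arrays says little of a single gene.

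Gfi1 itself had nearly the same gene value in both genotypes, and its probe sets pulled in opposite directions. The gene was at 6.65, 6.54 and 6.61 on the SNP arrays, 6.43, 6.74 and 6.58 on the KO arrays, 5.59, 5.78 and 6.29 in WT and 6.28, 5.93 and 6.27 in wtKI. The difference was 0.02 ± 0.22 (limma adjusted p = 0.98), and -0.08 ± 0.26 on the 10 arrays. Probe set 10532126 was at 3.83, 2.89 and 3.26 on the SNP arrays and 6.43, 6.74 and 6.58 on the KO arrays, a difference of -3.25 ± 0.41 (limma adjusted p = 0.0855 over probe sets). Probe sets 10532129 and 10532130 went the other way, by 1.24 ± 0.25 and 1.74 ± 0.47, and 10532127 and 10532125 differed by -0.61 and -0.77. On 10532126 the wtKI arrays, at 2.36, 3.65 and 2.78, lay with the SNP arrays, and WT, at 5.08, 5.78 and 6.29, lay nearer KO. On 10532129 the wtKI arrays, at 6.88, 7.05 and 7.39, again lay with SNP, and WT, at 5.59, 5.33 and 5.84, with KO. On 10532130 wtKI lay within the range of WT. The knock-in mice carry human sequence, and no file maps the probes to the deleted or replaced part of the gene, so this measurement does not check the labels. Gfi1b, the close relative of Gfi1, differed by -0.55 ± 0.32 (limma adjusted p = 0.52).

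**Figure D2:**
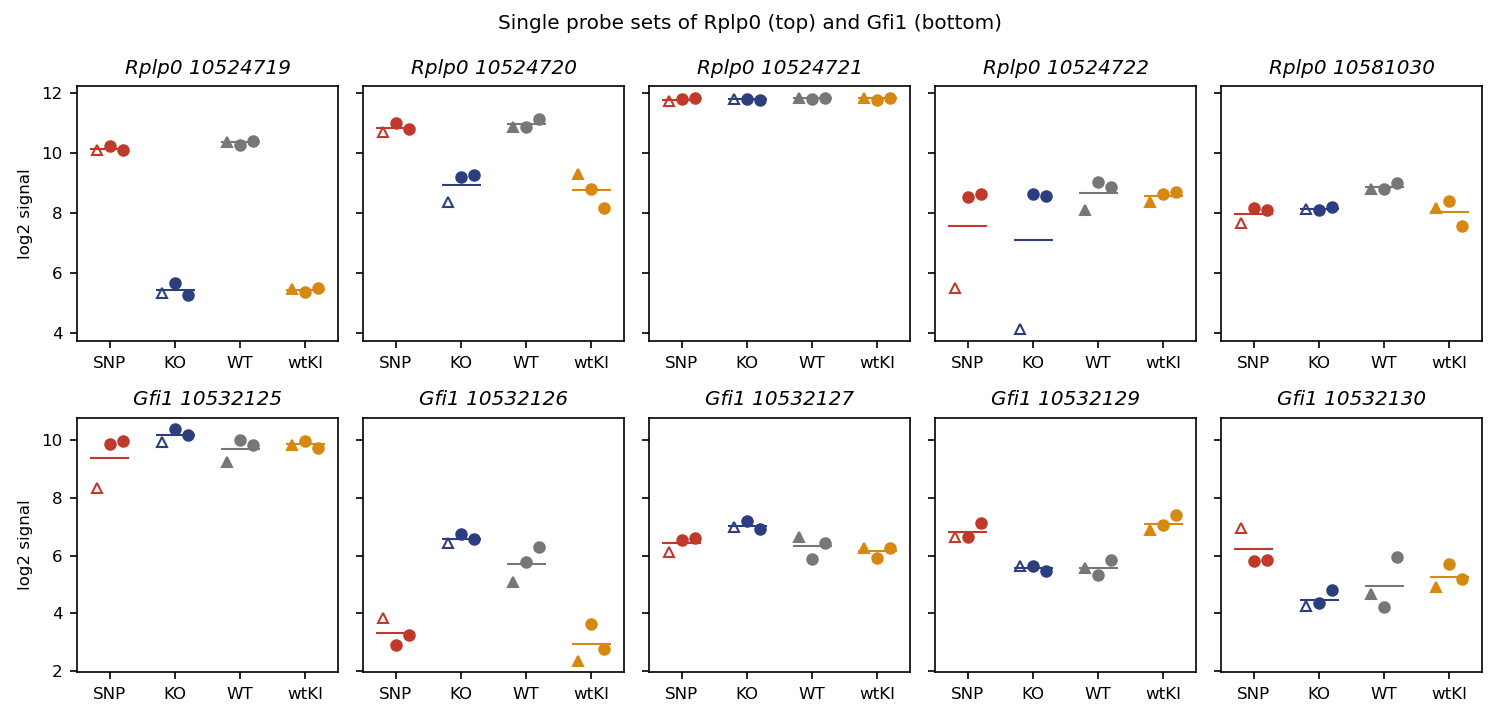
Log2 signal (y axis, shared within a row) of the 5 probe sets of Rplp0 (top) and the 5 of Gfi1 (bottom) on the 12 arrays by genotype (x axis), with symbols as triangles for replicate 1, open for SNP 1 and KO 1, and lines for means of 3 arrays. The difference of Rplp0 rests on 10524719 and 10524720, and Gfi1 probe set 10532126 is low on both kinds of knock-in arrays.

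Genes that GFI1 is reported to repress were divided between both genotypes. Of the 13 measured among 17 listed, 7 were higher in SNP and 6 lower, with a median difference of 0.00 against 0.01 for all genes, of which 7255 were higher. On the 10 arrays the list had 6 higher and a median of -0.17, against 0.00 over all genes, with 7154 higher, and without KO 2 alone 5 of 13 were higher with a median of -0.39. Hoxa9, a homeobox regulator of leukaemic self-renewal, was at 5.55, 8.78 and 9.34 on the SNP arrays and 9.38, 9.53 and 9.63 on the KO arrays. In these gene values every SNP array of Hoxa9 lay below KO, and SNP 1 lay far below the others. The difference was -1.62 ± 0.72 on 12 arrays (limma adjusted p = 0.428) and -0.52 ± 0.26 on 10. Neither of its 2 probe sets separated the groups. On 10544789 SNP 1 was at 2.71, while SNP 2 and SNP 3, at 10.33 and 10.80, lay above KO 1, at 10.28. On 10544790 SNP 1, at 8.38, lay within the range of KO, 8.20 to 8.48. Csf1, the macrophage growth factor, differed by -0.51 ± 0.54 and -0.91, Meis1, the partner of Hoxa9, by -0.60 ± 0.43 and -0.27, and Irf8, the regulator of the monocyte fate, by 0.18 ± 0.26 and 0.21 on 12 and 10 arrays. Egr2, a zinc-finger activator of the macrophage programme, was at 8.23, 8.11 and 8.40 on the SNP arrays and 7.92, 7.50 and 7.41 on the KO arrays, a difference of 0.64 ± 0.23 (limma adjusted p = 0.35). Spi1, which encodes the myeloid regulator PU.1, differed by -0.38 ± 0.33 and -0.69 ± 0.30.

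Among the corepressors that work with GFI1, 8 of 17 measured genes were higher and the median was -0.16, or 0.08 with the 10 arrays and 0.03 without SNP 1 alone. Ajuba, a LIM-domain scaffold, differed by -0.99 ± 0.30 and -0.58 ± 0.29. Its 3 probe sets were unlike each other, with differences of -1.16, -3.145 and 0.016 on 12 arrays. Rcor3, of the CoREST family, differed by -0.34 ± 0.27 and -0.57 ± 0.20, and Cbfa2t2, of the ETO family, by 0.67 ± 0.34 and 0.91 ± 0.36. The transcription factors of granulocytes and monocytes had 6 of 13 members higher, with a median of -0.20, or -0.13 on 10 arrays and -0.08 without SNP 1 alone. Cebpe, which drives late granulocyte genes, was at 8.02, 7.31 and 7.07 on the SNP arrays and 7.53, 8.03 and 8.01 on the KO arrays, and differed by -0.39 ± 0.28 and -0.83 ± 0.24. Ets2, an ETS-family factor, differed by 0.26 ± 0.62 on 12 arrays and -1.12 ± 0.26 on 10, since SNP 1 was at 7.89 and KO 1 at 4.86. No gene of these or of the other lists described below passed the test on 12 or on 10 arrays.

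The base motif AAATCA, which holds the AATC core, was searched on both strands in the 250 bases before RefSeq gene starts. It was found in 12.4% of the 32851 windows of the table, in at least one window of 10% of the 11312 measured genes that have one, and in 8 of the 64 named genes with a window (12.5%). AATC alone occurs in 69.0% of windows. Serpina3g is one of these 8 genes, and the windows of Ltf, Mmp8 and Hdc, described below, also hold the motif. These 4 were picked because they hold it and are shown so that the letters can be seen beside the values; a match says nothing of binding in these cells. The sequences are those of RefSeq on GRCm38.p6, 5′ to 3′ along the gene's strand, with the motif in capitals. Those of Serpina3g (chr12:104235897-104236146, plus strand), Ltf (chr9:111019042-111019291, plus strand), Mmp8 (chr9:7558179-7558428, plus strand) and Hdc (chr2:126618679-126618928, minus strand) are as follows.
Serpina3g: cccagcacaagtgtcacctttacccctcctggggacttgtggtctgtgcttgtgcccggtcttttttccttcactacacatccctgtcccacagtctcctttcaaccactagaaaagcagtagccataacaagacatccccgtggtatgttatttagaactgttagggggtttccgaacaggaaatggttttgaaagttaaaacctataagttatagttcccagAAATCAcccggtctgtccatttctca
Ltf: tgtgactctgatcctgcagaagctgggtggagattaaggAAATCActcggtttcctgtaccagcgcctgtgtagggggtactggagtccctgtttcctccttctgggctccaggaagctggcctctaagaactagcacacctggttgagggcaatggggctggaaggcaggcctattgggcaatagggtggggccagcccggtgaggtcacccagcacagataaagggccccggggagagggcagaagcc
Mmp8: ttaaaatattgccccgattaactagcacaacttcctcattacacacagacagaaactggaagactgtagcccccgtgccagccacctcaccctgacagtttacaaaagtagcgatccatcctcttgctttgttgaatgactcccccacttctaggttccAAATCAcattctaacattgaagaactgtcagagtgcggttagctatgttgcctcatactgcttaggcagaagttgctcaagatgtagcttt
Hdc: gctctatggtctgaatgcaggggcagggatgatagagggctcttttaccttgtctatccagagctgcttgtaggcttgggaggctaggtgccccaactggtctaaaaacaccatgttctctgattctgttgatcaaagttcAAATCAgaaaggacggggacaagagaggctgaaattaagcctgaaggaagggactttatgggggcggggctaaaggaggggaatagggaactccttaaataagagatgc
All of these matches read AAATCA along the gene's own strand, and they lie 21, 206, 86 and 104 bases from the start.

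Late neutrophil genes, which are made as granulocytes mature, split into members with a higher signal with the variant and members with a lower one. On all 12 arrays 19 of 22 measured members (of 23 listed) were higher in SNP, with a median of 1.28. Without SNP 1 and KO 1 the count was 12 of 22 and the median 0.32, and without SNP 1 alone it was 10 of 22 and -0.02. At an unadjusted p under 0.05, 8 and 7 of the 22 members were higher on 12 and 10 arrays, against 4.68% and 6.34% of all genes, and 0 and 4 were lower, against 6.67% and 7.25%. SNP 1 was above the mean of SNP 2 and SNP 3 in 22 of 22 members, by a median of 3.74, and KO 1 above the other KO arrays in 13 of 22, by a median of 0.97. Averaged over the list and set against WT, the arrays stood at 3.78, -0.20 and 0.26 for SNP and 0.33, -0.35 and -0.84 for KO. In sorted cells measured in bulk, fewer cells of a type and less RNA per cell cannot be told apart.

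S100a9, a subunit of calprotectin, was at 11.89, 9.33 and 9.80 on the SNP arrays and 8.91, 6.50 and 5.5 on the KO arrays, with WT between 7.80 and 9.69. Each SNP array of S100a9 lay above every KO array, and the difference was 3.37 ± 0.85 on 12 arrays (limma adjusted p = 0.268) and 3.56 ± 0.55 on 10 (limma adjusted p = 0.0979). S100a8, the other subunit, differed by 2.39 ± 0.85 and 2.31 ± 0.64. Ngp, neutrophilic granule protein, was at 11.25, 7.19 and 7.38 on the SNP arrays and 6.23, 4.13 and 3.51 on the KO arrays, a difference of 3.98 ± 1.11 and 3.46 ± 0.82. Ltf, which encodes the iron-binding lactoferrin of secondary granules, was at 11.45, 6.53 and 6.91 on the SNP arrays and 5.18, 3.97 and 4.31 on the KO arrays. No SNP array of Ltf overlapped KO, and its differences were 3.80 ± 1.04 and 2.58 ± 0.53. Camp, the cathelicidin of the same granules, gave 3.91 ± 1.04 and 2.31 ± 0.61, and Retnlg, a secreted protein of the resistin family, 2.78 ± 1.13 and 2.96 ± 0.49. On KO 2 and KO 3, Ngp, Ltf, Camp and Retnlg lay under the 5th percentile of the arrays, as did S100a9 on KO 3, so the sizes of these differences are not exact.

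Mmp8, the neutrophil collagenase, went the other way. It was at 11.34, 8.75 and 8.12 on the SNP arrays and 10.32, 10.35 and 10.48 on the KO arrays, with WT between 6.49 and 7.11 and wtKI between 7.57 and 8.87. SNP 2 and SNP 3 lay below KO and above WT, and SNP 1 lay above both. Its difference was -0.98 ± 0.65 on 12 arrays and -1.98 ± 0.39 on 10 (limma adjusted p = 0.156 for the latter). Padi4, a deiminase that acts in neutrophil extracellular traps, differed by -0.19 ± 0.66 on 12 arrays and -1.35 on 10, and the lipocalin Lcn2, of secondary granules, by 1.52 on 12 arrays and -0.42 on 10. S100a8, Ltf, Camp, Mmp8, Padi4 and Lcn2 were chosen after their values were seen.

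**Figure D3:**
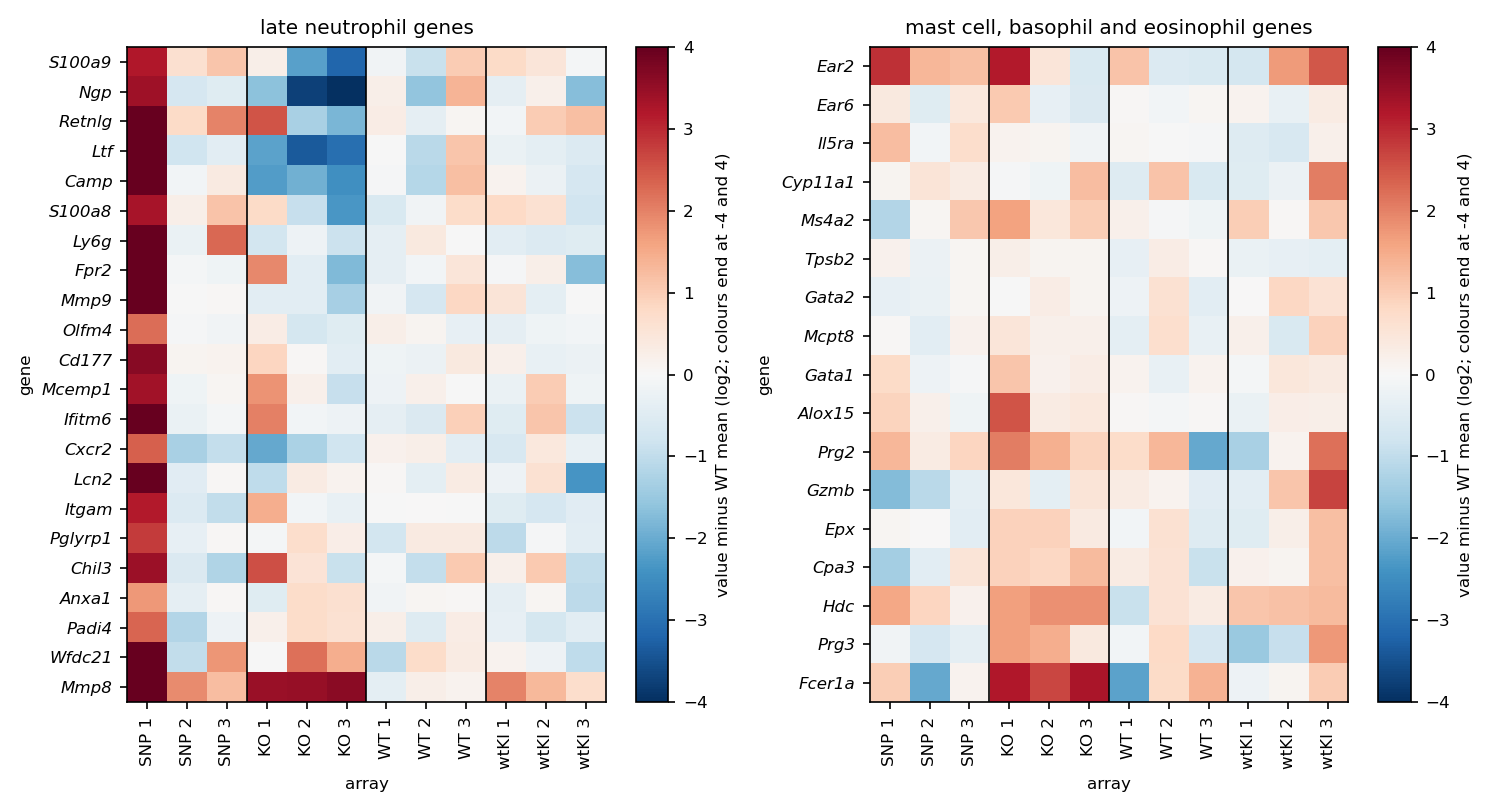
Signal of each gene (rows) on each array (columns) minus the mean of the WT arrays, on the log2 scale, with colours ending at -4 and 4, for late neutrophil genes (left) and mast cell, basophil and eosinophil genes (right). Rows run from the highest to the lowest difference between SNP and KO on 10 arrays. SNP 1 is above the mean of WT for all 22 late neutrophil genes, and S100a9, Ngp and Ltf are low on KO 2 and KO 3.

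Primary granule genes, which GMPs and promyelocytes express, had 4 of 14 measured members higher with the variant and a median of -0.52, and on the 10 arrays 3 of 14 and -0.30. Without SNP 1 alone 6 of 14 were higher and the median was -0.10. Hp, haptoglobin, differed by -0.55 ± 0.49 and -0.99 ± 0.43, and Ctsc, the cathepsin that activates granule proteases, by -0.63 ± 0.42 and -0.69 ± 0.24. Fcnb, a ficolin of immature myeloid cells, was above KO by 1.37 ± 0.73 on 12 arrays and 0.71 ± 0.25 on 10. Mpo differed by -0.17 and 0.04.

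Mast cell, basophil and eosinophil genes had a lower signal with the variant in 14 of 17 measured members (of 22 listed) in both sets of arrays. The median was -0.62 on 12 arrays and -0.35 on 10, and 7 members were lower without overlap, against 7.04% of all genes. On 12 and 10 arrays 4 and 2 of the 17 were lower at an unadjusted p under 0.05, against 6.67% and 7.25% of all genes. Without KO 1 alone 14 of 17 were lower and the median was -0.33. Averaged over the list and set against WT, the SNP arrays stood at 0.34, -0.15 and 0.26 and the KO arrays at 1.24, 0.61 and 0.62, while wtKI 3 stood at 1.12. Fcer1a, the IgE-binding subunit of a mast cell receptor, was at 6.18, 3.16 and 5.33 on the SNP arrays and 8.41, 7.88 and 8.46 on the KO arrays. All KO arrays of Fcer1a lay above every other array of the study, the highest of which was 6.59, and the difference was -3.36 ± 0.88 (limma adjusted p = 0.269) and -3.92 ± 1.03 on 10 arrays. SNP 2 and SNP 3 were under the 5th percentile of their arrays, so the size is not exact.

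Hdc, which makes histamine, was at 9.23, 8.56 and 7.89 on the SNP arrays and 9.34, 9.53 and 9.54 on the KO arrays, with WT between 6.82 and 8.27. SNP 1 and SNP 2 lay between WT and KO, SNP 3 within the range of WT, and the difference was -0.90 ± 0.39 and -1.30 ± 0.41. Cpa3, the carboxypeptidase of mast cell granules, differed by -1.42 ± 0.50 and -0.99 ± 0.53, and Prg3, an eosinophil granule protein, by -1.57 ± 0.70 and -1.46 ± 0.88. Ear2, an eosinophil ribonuclease with near-identical relatives, was on the other side, at 0.81 ± 1.00 and 1.34 ± 0.91. Hdc and Cpa3 were chosen after their values were seen.

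Receptors for myeloid cytokines and chemokines were evenly divided, with 8 of 16 measured members higher and a median of -0.03 on 12 arrays and -0.04 on 10, and with 6 of 16 higher and -0.16 without SNP 1 alone. Csf2rb, the shared signalling chain of the receptors for GM-CSF, IL-3 and IL-5, was at 7.60, 6.93 and 6.92 on the SNP arrays and 8.44, 8.36 and 8.25 on the KO arrays, with WT between 7.13 and 7.49 and wtKI between 7.57 and 7.80. The KO arrays of Csf2rb lay above all others. The difference was -1.20 ± 0.22 (limma adjusted p = 0.124) and -1.38 ± 0.20 on 10 arrays (limma adjusted p = 0.0979), and all 9 probe sets were lower in SNP, by -0.65 to -2.25. With median polish it was -1.41 and passed the test (limma adjusted p = 0.0478). Csf2rb2, the near-identical neighbour that serves IL-3 in mice, differed by -1.25 ± 0.41 and -1.54 ± 0.36, and probes may not fully separate the pair. Tlr4, the receptor for endotoxin, differed by -0.12 ± 0.58 and -0.90 ± 0.29, with SNP 1 at 8.24 and the other SNP arrays at 5.62 and 5.47.

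B-lineage and erythroid genes were higher in SNP on 12 arrays, and SNP 1 had the highest mean of both lists among the 12 arrays. B-lineage genes were higher in SNP in 16 of 16 measured members, with a median of 1.17, and in 14 of 16 on the 10 arrays, with a median of 0.49. Without SNP 1 alone 14 of 16 were higher and the median was 0.24. Averaged over the list and set against WT, SNP stood at 3.07, 0.17 and 0.49 and KO at 0.63, -0.23 and -0.26. Dntt, the terminal transferase of lymphoid progenitors, was at 10.07, 6.22 and 7.29 on the SNP arrays and 6.15, 5.88 and 5.46 on the KO arrays, a difference of 2.03 ± 0.83 and 1.08 ± 0.65. Cr2, a complement receptor of B cells, differed by 2.07 ± 0.57 and 1.21 ± 0.35, and Ebf1, a B-cell factor under the 5th percentile on most arrays, by 1.85 ± 1.34 and 1.58 ± 0.76. Erythroid genes had 14 of 16 higher and a median of 0.74, then 10 of 16 and 0.20 on the 10 arrays, and -0.17 without SNP 1 alone. On 12 arrays 0 of the 16 were higher at an unadjusted p under 0.05, against 4.68% of all genes. Higher without overlap were 0, against 6.55%. On 10 arrays 2 were higher at such a p and 1 lower, against 6.34% and 7.25% of all genes. SNP 1 exceeded the mean of SNP 2 and SNP 3 in 16 of 16 erythroid genes, by a median of 3.84. Rhd, a red-cell membrane protein, differed by 1.35 ± 1.46 and 1.70 ± 0.60, Hbb-b1, an adult beta globin, by 1.45 ± 1.48 and 1.57 ± 1.13, and Car1, a carbonic anhydrase, by 0.07 ± 1.37 and -1.05 ± 1.16. The part of such cells in the other results was not tested.

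T and NK cell genes had 10 of 16 higher in both sets of arrays, with medians of 0.32 and 0.11, and 0.07 without SNP 1 alone. Lef1, a Wnt-pathway factor of T cells, differed by 1.53 ± 0.65 and 1.03 ± 0.30, Cd8a, a T-cell coreceptor, by 1.41 ± 0.61 and 0.77 ± 0.42, and Thy1, a surface glycoprotein, by -0.75 ± 0.62 and -1.80 ± 0.52. Of the megakaryocyte and platelet genes, 5 of 13 were higher, with a median of -0.05, or 0.02 on 10 arrays and -0.11 without SNP 1 alone. Selp, the adhesion receptor P-selectin, was at 5.06, 4.59 and 5.46 on the SNP arrays and 6.23, 6.83 and 8.0 on the KO arrays, with WT between 4.89 and 5.53. The KO arrays of Selp were the highest of the study, and the difference was -1.98 ± 0.41 (limma adjusted p = 0.172) and -2.39 ± 0.42. With the mean of probe sets it was -2.07 and passed the test (limma adjusted p = 0.0468). For the brightest of its 10 probe sets it was -0.089, and single probe sets differed by -5.51 to 0.44. Cd9, a tetraspanin, differed by -0.31 ± 0.44 and -1.05 ± 0.39, and Gng11, a G-protein subunit, by -0.33 ± 0.55 and 0.49 ± 0.53.

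Monocyte genes were higher in 11 of 16, with a median of 0.15, and 9 of 16 on 10 arrays, with a median of 0.13, but in 7 of 16 without SNP 1 alone, with a median of -0.27. Ly86, the partner of a Toll-like receptor relative, differed by 0.88 ± 0.36 and 0.86 ± 0.45, and F13a1, a coagulation factor of monocytes, was at 9.92, 10.01 and 9.55 on the SNP arrays and 9.40, 9.0 and 9.04 on the KO arrays, a difference of 0.68 ± 0.35. Vcan, a proteoglycan, differed by -1.05 ± 1.34 and -1.74 ± 0.66. Macrophage genes had 8 of 11 higher, with a median of 0.20, and 5 of 11 and -0.04 on the 10 arrays, and -0.01 without SNP 1 alone. Mrc1, the mannose receptor, was above KO on every SNP array, by 0.66 ± 0.20 (limma adjusted p = 0.283), Cd163, the haemoglobin scavenger receptor, by 0.63 ± 0.56 on average, and Cd68, a lysosomal glycoprotein, differed by -0.12 ± 0.41 and -0.63 ± 0.22. Dendritic cell and MHC class II genes had 10 of 16 higher, with a median of 0.35, and 8 of 16 and -0.04 on 10 arrays. Without SNP 1 alone 4 of 16 of them were higher and the median was -0.33. Siglech, a receptor of plasmacytoid dendritic cells, differed by 2.26 ± 0.80 and 1.67 ± 0.78, Zbtb46, a factor of conventional dendritic cells, by 0.56 ± 0.30 and 0.76 ± 0.35, and H2-DMa, a peptide loader of class II, by -0.41 ± 0.30 and -0.73 ± 0.24.

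**Figure D4:**
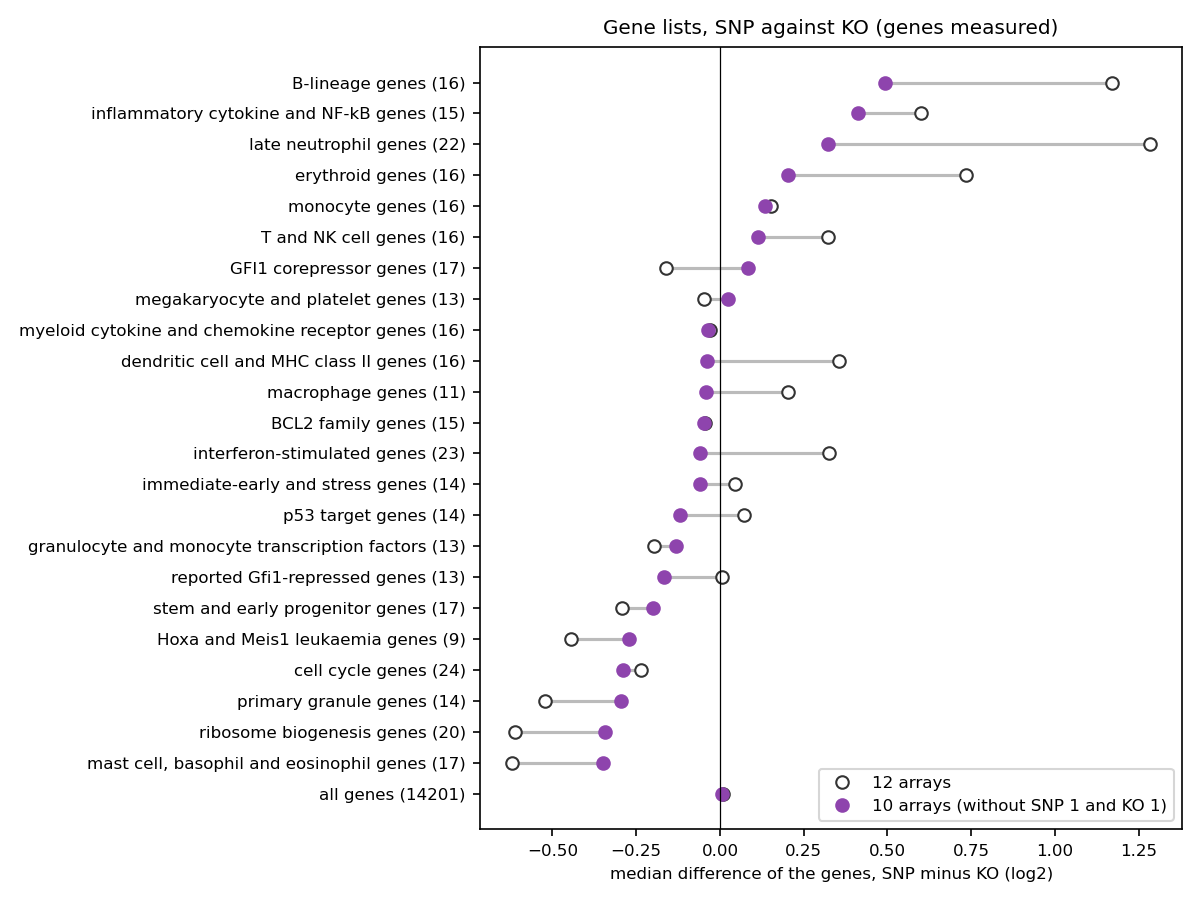
Median difference between SNP and KO (log2, x axis) over the measured genes of each list (y axis, number measured in brackets), on 12 arrays (open circles) and on the 10 arrays without SNP 1 and KO 1 (filled circles), with all genes at the bottom. The late neutrophil, B-lineage and erythroid medians are 1.28, 1.17 and 0.74 on 12 arrays and 0.32, 0.49 and 0.20 on 10.

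Ribosome biogenesis genes were lower with the variant throughout the list on 12 arrays, and the size of this depended on SNP 1. All 20 measured members were lower, with a median of -0.61, and 17 of 20 on the 10 arrays, with a median of -0.34. Without SNP 1 alone 15 of 20 were lower, with a median of -0.14. On 12 and 10 arrays 5 and 4 of the 20 were lower at an unadjusted p under 0.05, against 6.67% and 7.25% of all genes, and 4 were lower without overlap, against 7.04%. SNP 1 was below SNP 2 and SNP 3 in all 20 members, by a median of -1.42, and set against WT the list averaged -1.57, -0.07 and -0.49 on SNP and -0.50, 0.03 and 0.11 on KO. Rrp9, of the small nucleolar ribonucleoproteins, was at 5.61, 7.00 and 6.74 on the SNP arrays and 7.31, 7.70 and 7.46 on the KO arrays, a difference of -1.04 ± 0.33 and -0.71 ± 0.26. Nop2, a methyltransferase of ribosomal RNA, differed by -0.87 ± 0.29 and -0.75 ± 0.30, and Gar1, of the pseudouridine-forming particles, by -0.94 ± 0.37 and -0.85 ± 0.44.

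Cell cycle genes were lower with the variant in 22 of 24 measured members on 12 arrays and 21 of 24 on 10, with medians of -0.24 and -0.29. Without SNP 1 alone 20 of 24 were lower, with a median of -0.17. In each set of arrays 1 of the 24 was lower at an unadjusted p under 0.05, against 6.67% and 7.25% of all genes. On 12 arrays 2 were lower without overlap, against 7.04% of all genes. The mitotic regulators Cdc20 and Aurka differed by -0.80 ± 0.38 and -0.50 ± 0.30 on 12 arrays and by -0.62 ± 0.28 and -0.83 ± 0.33 on 10. Mcm2, of the replicative helicase, differed by -0.49 ± 0.42 and -0.64 ± 0.31. Set against WT, this list stood at -0.62, -0.09 and -0.50 on the SNP arrays and -0.31, -0.05 and 0.00 on the KO arrays. The wtKI arrays stood at -0.21, -0.10 and -0.34, so SNP 2 lay above KO 1 and all wtKI arrays. Without SNP 3 alone 18 of 24 were lower, with a median of -0.20.

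Genes of the Hoxa and Meis1 leukaemia programme were lower in 6 of 9 measured members in both sets of arrays, with medians of -0.45 and -0.27, and 5 of 9 and -0.17 without SNP 1 alone. Besides Hoxa9, Lmo2, a bridging factor of stem cells, was below KO on every SNP array, by -0.83 ± 0.29 and -0.56 ± 0.22, and Eya1, a transcriptional coactivator, differed by -0.67 ± 0.52 and -0.99 ± 0.56. Stem and early progenitor genes had 12 of 17 lower, with a median of -0.29, and 11 of 17 and -0.20 on the 10 arrays, and -0.18 without SNP 1 alone. Procr, the protein C receptor of stem cells, was at 6.52, 6.59 and 6.98 on the SNP arrays and 7.43, 7.72 and 7.41 on the KO arrays, a difference of -0.83 ± 0.23 (limma adjusted p = 0.269). Myct1, a target of MYC, differed by -1.47 ± 0.56 and -0.98 ± 0.51, and Slamf1, a stem cell surface receptor, by -0.40 ± 0.43 and -1.01 ± 0.44.

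Inflammatory cytokine and NF-kB genes were higher in SNP in 14 of 15 measured members, with a median of 0.60, and in 11 of 15 on the 10 arrays, with a median of 0.41. Without SNP 1 alone 10 of 15 were higher and the median was 0.23. SNP 1 was above SNP 2 and SNP 3 in all 15, by a median of 1.22. Il1b, the cytokine interleukin-1 beta, was at 9.18, 5.55 and 6.00 on the SNP arrays and 4.98, 5.11 and 4.41 on the KO arrays, a difference of 2.08 ± 0.73 and 1.02 ± 0.35. Tnf, the tumour necrosis factor, differed by 1.73 ± 0.59 and 1.30 ± 0.72, and Nfkbiz, a nuclear regulator of NF-kB, by 0.09 ± 0.57 and -0.82 ± 0.49. Interferon-stimulated genes had 17 of 23 higher, with a median of 0.33, but 11 of 23 and -0.06 on the 10 arrays, and 10 of 23 and -0.07 without SNP 1 alone. Iigp1, an interferon-induced GTPase, was at 8.59, 8.24 and 8.06 on the SNP arrays and 7.52, 7.09 and 7.03 on the KO arrays, a difference of 1.08 ± 0.26 (limma adjusted p = 0.258). Oasl2, a relative of the oligoadenylate synthetases, differed by 2.31 ± 0.77 and 2.16 ± 0.51, and Mx2, an antiviral GTPase, by -0.53 ± 0.47 and -1.0 ± 0.55.

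Immediate-early and stress genes were evenly divided, with 7 of 14 higher in both sets of arrays and medians of 0.05 and -0.06, and with 6 of 14 higher and -0.21 without SNP 1 alone. Ier3, Klf6 and Egr1, which respond to growth factors and stress, differed by -0.02, -0.37 and -0.28 on 12 arrays and by -1.21, -1.02 and -0.96 on 10. Of the p53 target genes 9 of 14 were higher, with a median of 0.07, and 6 of 14 and -0.12 on the 10 arrays, and 4 of 14 and -0.15 without SNP 1 alone. Pmaip1, the pro-apoptotic protein NOXA, was at 5.53, 5.28 and 4.97 on the SNP arrays and 4.83, 7.03 and 6.73 on the KO arrays, and differed by -0.94 ± 0.53 and -1.75 ± 0.43. Zmat3, an RNA-binding protein, differed by -1.31 ± 0.66 and -1.88 ± 0.74, and Gadd45b, a stress sensor, by 0.14 ± 0.61 and -0.80 ± 0.26. Zmat3 lay under the 5th percentile on all 3 SNP arrays and on 2 KO arrays, and Pmaip1 on SNP 2 and SNP 3. The sizes of the differences of Zmat3 and Pmaip1 are therefore not exact. In the BCL2 family 7 of 15 were higher, with medians of -0.04 and -0.05. Bak1, a pore-forming protein of apoptosis, was below KO on every SNP array, by -0.74 ± 0.23 (limma adjusted p = 0.298), and Bid, its activator, differed by 0.52 ± 0.32 and 0.42 ± 0.21.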

How the data were processed

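The authors deposited log2 signals, made with RMA according to the submitters' processing notes. The RMA version is not given in the sources used here, nor are its settings. In the platform annotation, 98975 of the 105661 probe sets have 1 gene symbol, 1703 have several and 4983 have none. Every probe set reaches at least 6.14 on some array, so a selection was made upstream in a way not stated. The median of the single-symbol probe sets was taken per gene and array, giving 14201 genes (median of 5 probe sets, 2874 genes on 1). RefSeq genes (GRCm38.p6) included 14144 of them and updated 1752 symbols.

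The contrast SNP minus KO was fitted with limma 3.58.1 in R 4.3.3 (lmFit, eBayes) on all 12 arrays, which share one estimate of the spread, and again without SNP 1 and KO 1, with Benjamini-Hochberg adjustment over all genes and a threshold of 0.05. The fit was run on simulated data in which a gene had the same spread on every array. This does not tell how the fit does with arrays that scatter more, such as SNP 1 and KO 1. Array number limits the precision. At most 0.0511% of values were equal between arrays. Same-numbered SNP and KO arrays deviated together from their group means (correlations 0.341, 0.191 and 0.139), the only sign of a pairing, since the labels give none beyond the number. Arrays with different numbers also did so in some cases (SNP 2 with KO 3 at 0.288).

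The comparison, gene lists and tests were chosen with earlier results of these data known. Lists are described by counts and medians, with no test. The rule named 87 genes: Gfi1, Gfi1b, Hoxa9, Meis1, Csf1 and Irf8, up to 10 called genes or otherwise the 5 with the smallest p per direction and set of arrays (uncharacterised, predicted, olfactory, vomeronasal, pseudogene and small RNA genes left out), and of each list up to 3 with the largest difference on 10 arrays. Others are said to have been chosen after their values were seen. Alternatives were other summaries of probe sets, other normalizations, a filter on dim genes, other variance models, array weights, the replicate block and leaving out each array. The result of one probe set is not reported here.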

Additional observations from a re-analysis of the deposited data

How the results depend on the processing

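On 12 arrays 2 genes were called. The count was 13 with the mean of the probe sets (2 higher and 11 lower, with Adamts6 among the former and Zdhhc2, Selp, Serpina3g, Ttc8 and Vat1 among the latter), 98 with array weights (33 higher, 65 lower), 1 without the dimmest 30% of genes, 1 with a variance trend and robust prior, and 0 with the probe set of highest mean, with only the SNP and KO arrays (901 at an unadjusted p under 0.05) and with the replicate block (1671). It was 2 with median polish (Csf2rb and Zdhhc2) and with repeated quantile normalization (Fzd6 and Rplp0). Leaving out 1 array gave 0 to 3: 3 without SNP 1 (Ifitm1, Rplp0 and Zdhhc2), 1 without SNP 3 (Kng2), 1 without KO 3 (Amdhd1) and 0 without any other, and without both SNP 1 and KO 1 it was 1. On the 10 arrays, with 1 gene called, the count was 0 with median polish, the mean of probe sets, the probe set of highest mean, only the SNP and KO arrays, or the replicate block, 2 over single probe sets, 4 with repeated quantile normalization (Ifitm1, Kcnrg, Rplp0 and Zdhhc2) and 3 with trend and robust prior (Ifitm1, Kcnrg and Rplp0). Leaving out 1 more array gave 0 to 3, with 0 without SNP 2, SNP 3, KO 2 or KO 3, and 3 without WT 3 (Ifitm1, Kcnrg and S100a9). Kng2 and Amdhd1 were named after the calls were seen. The replicate block changed no call of a named gene other than those of Rplp0 and Zdhhc2 on 12 arrays, at a limma adjusted p of 0.12, and of Ifitm1 on 10 arrays, where the lowest of any gene was 0.0843. Of the 93 genes followed on 12 arrays, 67 kept their sign in every setting, and the following differences, none of which had passed the test apart from Rplp0, changed theirs. With the probe set of highest mean they were -0.77 for Gfi1, 0.35 for Csf1, -0.059 for Irf8, -0.0077 for Rplp0, 0.50 for Siglece, 0.016 for Ajuba, 0.14 for Rcor3, 0.47 for Slamf1, 0.0018 for Hp, -0.50 for Car1, 0.19 for Cd9, 0.18 for Thy1, 0.17 for Aurka and 0.85 for Klf6. Median polish gave -0.33 for Gfi1, -0.013 for Car1 and 0.10 for Klf6, and the mean of probe sets -0.33 for Gfi1, 0.059 for Siglece and 0.30 for Klf6. Repeated quantile normalization gave -0.0095 for Gfi1 and -0.0081 for Gadd45b. Array weights gave -0.11 for Gfi1, -0.89 for Ets2, 0.79 for Gng11, -0.64 for Gadd45b and -0.89 for Nfkbiz. Without SNP 1 and KO 1 the values were -0.085 for Gfi1, -1.12 for Ets2, -1.05 for Car1, 0.49 for Gng11, -0.80 for Gadd45b and -0.82 for Nfkbiz. Leaving out 1 array at a time gave -0.059 to 0.096 for Gfi1, -0.51 to 0.77 for Ets2, -1.02 to 0.37 for Tlr4, -2.83 to 0.097 for Vcan, -0.72 to 0.26 for Cd68, -0.0045 to 1.89 for Ear2, -0.13 to 3.18 for Rhd, -1.61 to 1.98 for Car1, -0.74 to 0.21 for Cd9, -0.88 to 0.23 for Gng11, -0.83 to 0.76 for Gadd45b, -0.86 to 0.081 for Mx2, -0.91 to 0.66 for Ier3, -1.45 to 0.23 for Klf6, -0.74 to 0.39 for Egr1 and -0.57 to 0.51 for Nfkbiz. The cause of these changes was not tested.

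With 3 arrays per genotype, and SNP 1 and KO 1 unlike their partners, the number of arrays limits what can be called. The counts of called genes turned on the summary of probe sets, the weights and single arrays, and leaving out SNP 1 alone turned the sign of several list medians, among them those of the erythroid, late neutrophil and monocyte genes. Values under the 5th percentile of an array have no exact size. Kcnrg, Slc7a3, Fcnb, Siglech, Rhd, Cr2, Lef1, Cd8a, Oasl2, Tnf and Il1b each had such values on 2 KO arrays. Pmaip1, Slamf1, Mx2 and Vcan each had them on 2 SNP arrays. Array signals cannot separate near-identical genes, and genes left out upstream were not analysed here.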
